A study of Bos taurus with 8 samples.

Results

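The genes described here are 6 dual-specificity phosphatases that remove phosphate from MAP kinases: DUSP1 (ENSBTAG00000013863), DUSP2 (ENSBTAG00000020350), DUSP4 (ENSBTAG00000044208), DUSP5 (ENSBTAG00000020283), DUSP6 (ENSBTAG00000004587) and DUSP10 (ENSBTAG00000001729). They were taken by name from the scRNA-seq tables, as 6 of the 21861 genes listed there, and followed by LPS time and by cell class. LPS, the outer-membrane lipopolysaccharide of Gram-negative bacteria, is a standard stimulus of blood leukocytes. Tail-vein blood of 4 lactating Holstein cows aged 2 years was pooled and then divided into 4 parts. The part called no LPS got none, the others were kept as whole blood with 2 µg/ml LPS at 37 °C for 2 h, 4 h or 8 h, and peripheral blood mononuclear cells were isolated afterwards. From every part 1 library was made for each of scRNA-seq and scATAC-seq, so no difference has a replicate check, no p-value is given and animals cannot be told apart. The incubation time of the no LPS part is not given in the sources used here, so LPS and time in incubation cannot be told apart either.

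MAP kinase phosphatases switch off ERK, JNK and p38 kinases by removing phosphate from both the tyrosine and the threonine of the activation loop. Many of their genes are themselves switched on within minutes to hours of MAP kinase activity, which makes them feedback brakes on cytokine production in stimulated monocytes and lymphocytes. DUSP1, DUSP2 and DUSP4 act in the nucleus on several MAP kinases, DUSP5 acts in the nucleus and DUSP6 in the cytoplasm mainly on ERK, and DUSP10 acts mainly on JNK and p38.

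The scRNA-seq tables hold unique molecular identifier (UMI) counts per gene and barcode. Cells were kept if 200 to 3000 genes and no fewer than 200 UMIs were detected, with mitochondrial UMIs below 20%. In the order no LPS, 2 h, 4 h, 8 h, used for every run of 4 values here, they numbered 7821, 9865, 7387 and 3411, with 16657841 to 47875879 UMIs a library. A class was gated on raw marker counts: at least 3 UMIs of CD14, or at least 1 of CD3E, MS4A1 or NCR1, with 0 of the other 3 markers. The CD14 cells numbered 645, 279, 102 and 47, which was 8.25%, 2.83%, 1.38% and 1.38% of the cells kept, and 86, 34, 15 and 23 further CD14 cells lay above the limit of 3000 genes. CD3E cells numbered 1550 to 4937 a library, MS4A1 cells 663 to 2392 and NCR1 cells 38 to 97, and 1113 to 2160 cells a library fell in no gate. The gates were checked against other markers of the same cells, which were monocyte, T cell, B cell and NK cell lists. The T cell list was at 1701 to 1887 CPM in CD3E cells, the B cell list at 1538 to 2179 CPM in MS4A1 cells and the NK cell list at 2718 to 3150 CPM in NCR1 cells. In the other lymphoid classes the T cell list was at up to 517 CPM, in NCR1 cells. The B cell and NK cell lists were there at up to 154 and 328 CPM, both in CD3E cells. Some single markers went the other way, among them BLK of the B cell list. It was at 89.9 to 114 CPM in CD3E cells and at 22.3 to 34.9 CPM in MS4A1 cells. Monocyte markers other than CD14 summed to 13022, 7668, 8742 and 13976 CPM in CD14 cells. Of the 11 other monocyte markers 10 or 11 had UMIs in CD14 cells of each library (MSR1 was at 0 at 4 h and 8 h), while IL7R of the T cell list was at 412 to 835 CPM and TYROBP of the NK cell list, which myeloid cells also express, at 1080 to 2015 CPM in CD14 cells. Within a class UMIs were summed and scaled to counts per 1000000 UMIs (CPM), and ratios are log2((CPM + 1)/(CPM + 1)), given for genes with at least 20 UMIs in the libraries compared. A change means a ratio past 2-fold on this scale. Intervals are at the 95% level, take UMIs as independent and cover counting error alone. Doublets were not removed, and 79 cell barcodes occurred in more than 1 library.

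Over all cells kept, DUSP1 and DUSP6 were lower in the LPS libraries and the other 4 genes stayed within 2-fold. DUSP1 was at 263, 127, 74.9 and 149 CPM. DUSP6 was at 82.9, 38.4, 36.6 and 32.7 CPM. Both genes were highest without LPS, and DUSP1 at 8 h was 1.98-fold (1.88 to 2.09) its level at 4 h. DUSP1 fell by 1.04 at 2 h and by 1.80 at 4 h on the log2 scale, and was at -0.82 at 8 h. DUSP6 fell by 1.09, 1.16 and 1.32. At 2 h 2 of the 6 genes were past 2-fold, both down, where 3.4% of the 12150 genes tested were past 2-fold in either direction. At 4 h it was again 2 of 6, against 5.54% of 12060 genes, and at 8 h 1 of 6 (DUSP6), against 3.41% of 11778 genes. The median log2 ratio of the 6 genes was -0.15, -0.16 and -0.05 at the 3 times, beside -0.03, 0.02 and 0.10 over all genes tested. Without the upper limit on genes per cell DUSP1 at 2 h was at -0.95, no longer past 2-fold. With every cell weighted equally DUSP1 was at -0.94, -0.92 and 0.10 at the 3 times and DUSP6 at -0.29, -0.26 and -0.39, none past 2-fold. In these sums fewer cells of a type and less RNA per cell cannot be told apart.

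CD14 cells held 64.0% of the DUSP1 UMIs without LPS and 51.8%, 31.1% and 32.9% in the LPS libraries. Of the UMIs of all genes CD14 cells held 17.1%, 7.15%, 2.74% and 3.59%, so their share of all RNA also fell. For DUSP6 they held 63.9%, 29.4%, 17.4% and 19.3%. Ungated cells held 29.0%, 37.0%, 49.0% and 48.3% of the DUSP1 UMIs. Of the DUSP6 UMIs they held 32.4%, 58.0%, 68.4% and 59.9%, and of the UMIs of all genes 22.2%, 20.6%, 18.5% and 21.3%. The 4 classes and the ungated cells were also weighted by the shares of UMIs that they had without LPS. Under this weighting DUSP1 was at -0.25, -0.39 and 0.33 on the log2 scale at the 3 times, and DUSP6 at -0.58, -0.16 and -0.56, so that neither gene was past 2-fold at any time and DUSP1 at 8 h changed direction. DUSP2, DUSP4, DUSP5 and DUSP10 lay between -0.27 and 0.61 in the same weighting.

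**Figure D1:**
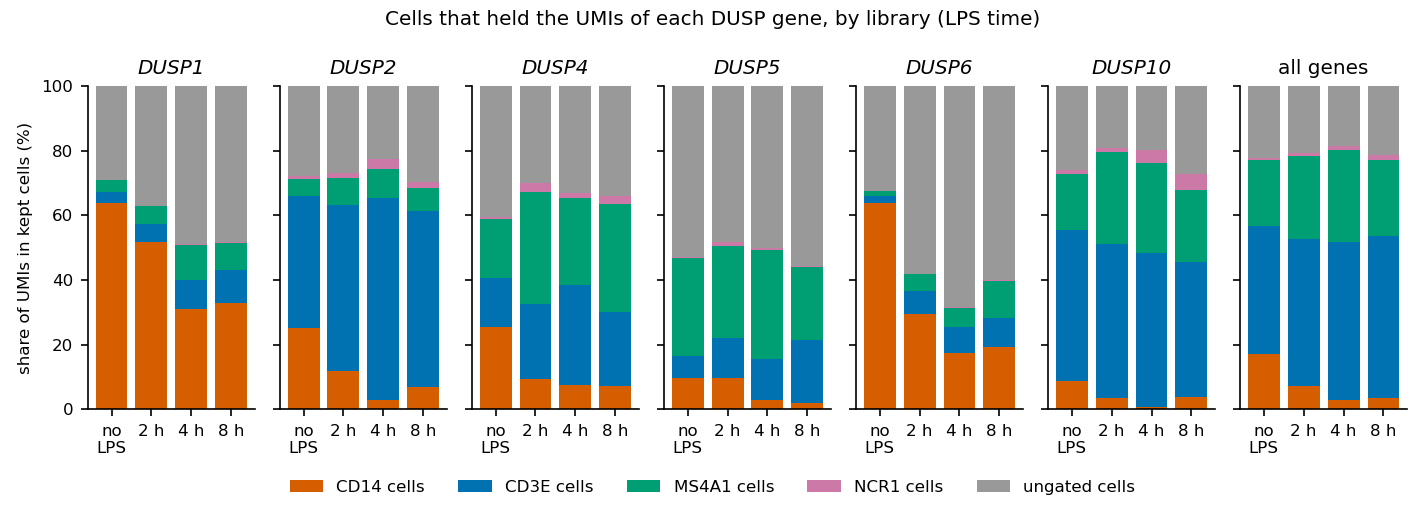
Share of the UMIs of each DUSP gene, and of all genes, held by CD14, CD3E, MS4A1, NCR1 and ungated cells (% of the UMIs in kept cells, stacked bars) in each library. The CD14 share of DUSP1 goes from 64.0% without LPS to 32.9% at 8 h and that of DUSP6 from 63.9% to 19.3%. That of all genes goes from 17.1% to 3.59%. CD3E cells hold the largest part of DUSP2 and DUSP10 in all 4 libraries. They also hold the largest part of all genes, at 39.6%, 45.5%, 49.0% and 49.9%, where DUSP10 is at 46.9%, 47.6%, 47.6% and 42.0%.

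DUSP1, best known for restraining p38 and JNK in LPS-treated macrophages, was highest in CD14 cells among the 4 gated classes in all 4 libraries. In CD14 cells it was at 982, 921, 850 and 1361 CPM. CD14 cells stood above every other class at all times, by 21.1-fold (19.0 to 23.5) over the next class, MS4A1 cells, without LPS and by 25.6-fold (22.0 to 29.9) at 8 h. Within CD14 cells DUSP1 never passed 2-fold against no LPS. Its ratio was 0.938 (0.899 to 0.979) at 2 h, 0.866 (0.807 to 0.927) at 4 h and 1.39 (1.29 to 1.49) at 8 h. The median CD14 cell had 9, 11, 7 and 18 DUSP1 UMIs, and the highest cell 55, 46, 31 and 45. A DUSP1 UMI was found in 89.6%, 89.6%, 89.2% and 93.6% of CD14 cells, at median depths of 10729 to 15172 UMIs a cell. With each cell thinned to 1000 UMIs and shallower cells left out, the shares were 54.5%, 49.5%, 55.3% and 60.9% of 624, 273, 94 and 46 cells, and their intervals all overlapped.

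In the lymphoid classes DUSP1 was low and had its lowest values at 2 h and 4 h. In CD3E cells it was at 22.5, 15.2, 13.4 and 30.2 CPM. In MS4A1 cells it was at 46.5, 28.4, 28.9 and 53.2 CPM. MS4A1 cells lay above CD3E cells in every library, by 1.76-fold to 2.15-fold, with intervals above 1 each time. None of the 6 ratios to no LPS passed 2-fold. NCR1 cells held only 4, 1, 4 and 3 DUSP1 UMIs, too few to place them below CD3E cells in 3 of the 4 libraries. Between consecutive LPS times, DUSP1 in CD3E cells rose 2.25-fold (1.88 to 2.68) from 4 h to 8 h, from 264 and 251 UMIs, which was 1.11 on the log2 scale. It was the 1 gene of 6 past 2-fold in that comparison, where 1.52% of 10443 genes were. Of 12 alternatives 8 kept it past 2-fold. It was at 0.96 without the upper limit on genes per cell, at 0.97 with at least 1500 UMIs per cell, and at 0.93 both with a gate of 2 UMIs and with 5 CPM added. At 1000 UMIs a cell, a DUSP1 UMI was in 1.75%, 1.31%, 1.22% and 3.602% of CD3E cells, and the 8 h interval (2.72% to 4.67%) lay above the others. The sum of the 11 monocyte markers other than CD14 was also lowest in these classes at 2 h and 4 h. They summed to 50.9, 20.7, 17.6 and 94.99 CPM in CD3E cells, and to 306, 39.0, 43.0 and 160 CPM in MS4A1 cells. S100A12 alone was at 28.6, 9.41, 7.68 and 69.4 CPM in CD3E cells and at 263, 8.85, 11.5 and 110 CPM in MS4A1 cells. The other 10 summed to 22.3, 11.2, 9.92 and 25.6 CPM and to 43.6, 30.1, 31.5 and 49.1 CPM. Single markers did not all follow the sums, as TLR4 was at 2.80, 4.47, 5.58 and 3.31 CPM in MS4A1 cells. As a share of its level in CD14 cells, DUSP1 stood in CD3E cells at 2.29%, 1.65%, 1.58% and 2.22%, where the median monocyte marker stood at 0.54%, 0.23%, 0.19% and 0.93%. The part of monocyte RNA in the lymphoid DUSP1 level was not tested.

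**Figure D2:**
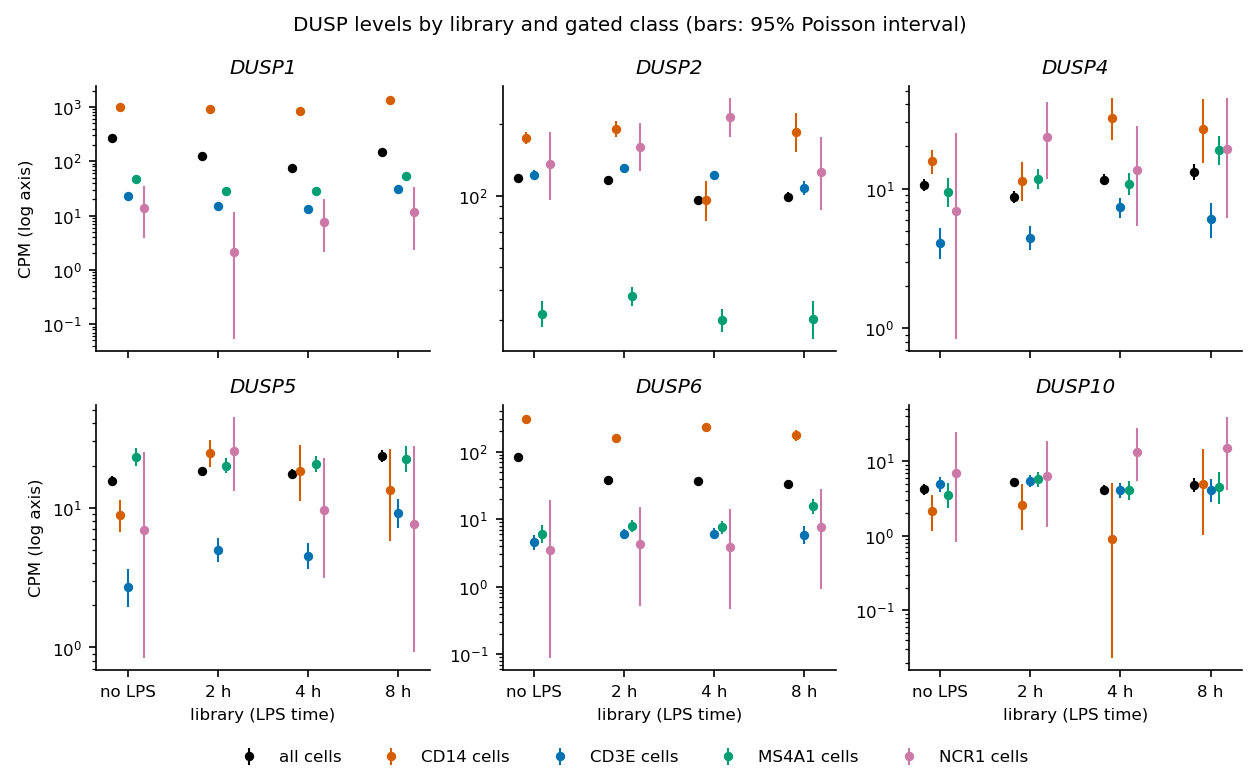
Level of each DUSP gene (CPM on a log axis, own scale for each gene) in all kept cells and in the 4 gated classes, by library, with 95% Poisson intervals of the counts as bars. DUSP1 and DUSP6 sit highest in CD14 cells in all 4 libraries, whereas DUSP2 in MS4A1 cells sits at 29.8 to 37.6 CPM, below the other 3 classes.

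DUSP2, a nuclear phosphatase found mainly in blood cells and also an early gene of T cell activation, was spread over several classes. CD3E cells were at 122, 131, 122 and 108 CPM. CD14 cells were at 175, 192, 95.4 and 185 CPM, and NCR1 cells at 135, 161, 214 and 126 CPM. MS4A1 cells were at 31.7, 37.6, 29.8 and 30.0 CPM. They were the lowest class in every library, by 3.86-fold (3.38 to 4.42) below CD3E cells without LPS and by 3.58-fold (2.95 to 4.38) at 8 h. CD14 cells lay above CD3E cells by 1.43-fold (1.33 to 1.54) without LPS, by 1.46-fold (1.34 to 1.59) at 2 h and by 1.72-fold (1.40 to 2.10) at 8 h. NCR1 cells lay between them in these libraries, and their intervals against both included 1. At 4 h NCR1 cells lay 1.75-fold (1.43 to 2.12) above CD3E cells, and CD3E cells 1.28-fold (1.05 to 1.57) above CD14 cells. Against no LPS, DUSP2 at 4 h had a ratio of 1.58 (1.09 to 2.34) in NCR1 cells and of 0.546 (0.442 to 0.667) in CD14 cells, neither past 2-fold. DUSP2 was the single gene of the 6 with at least 20 UMIs in NCR1 cells in any pair of libraries compared. Its log2 ratio in NCR1 cells was 0.25, 0.66 and -0.11 at the 3 times. Of all genes tested there 7.53%, 8.75% and 7.65% were past 2-fold, with a median of 0.01, 0.02 and -0.00.

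The DUSP2 UMIs of CD14 cells sat in few cells. The top decile of CD14 cells held 65.2%, 56.9%, 81.0% and 73.9% of them, and at 4 h 1 cell alone had 40 of the 105. Without cells of 3 or more DUSP2 UMIs the 4 h log2 ratio was -0.60 in CD14 cells and 0.18 in NCR1 cells. In CD3E cells the top decile held 54.3% to 57.8%. Among CD3E cells, those with CD4 and no CD8A UMI were at 158, 174, 157 and 138 CPM, and those with CD8A and no CD4 UMI at 82.1, 100.5, 70.4 and 77.4 CPM. The CD4 cells were thus higher in each of the 4 libraries.

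DUSP4, a nuclear phosphatase of ERK, JNK and p38, had few UMIs in each class. Its level over all cells was 10.5, 8.69, 11.6 and 13.2 CPM. CD14 cells were at 15.6, 11.4, 31.8 and 26.7 CPM, from 103, 39, 35 and 16 UMIs. CD3E cells were at 4.07, 4.45, 7.32 and 6.01 CPM, and MS4A1 cells at 9.43, 11.7, 10.8 and 18.8 CPM. The CD14 level at 4 h was 2.03-fold (1.34 to 3.01) that without LPS, just short of a change on the scale with 1 CPM added, at 0.98. The MS4A1 level at 8 h was 2.00-fold (1.43 to 2.79) and also just short, at 0.93. The CD14 level at 4 h was past 2-fold against 2 h, at 2.79-fold (1.72 to 4.52) or 1.40 on the log2 scale. It was the 1 gene of 5 tested past 2-fold there, where 12.4% of 5750 genes were and the median of all genes was 0.29. Of 12 alternatives 11 kept it past 2-fold, and without the upper limit on genes per cell it was at 0.98. In CD3E cells the largest ratio to no LPS was 1.80 (1.33 to 2.46), at 4 h. NCR1 cells had 2, 11, 7 and 5 DUSP4 UMIs, too few for a ratio.

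DUSP5, the nuclear ERK phosphatase, was the gene with the most cases past 2-fold in single classes. In CD14 cells it was at 8.80, 24.5, 18.2 and 13.4 CPM, from 58, 84, 20 and 8 UMIs. It rose 2.79-fold (1.97 to 3.97) at 2 h, which was 1.38 on the log2 scale, and all 12 alternatives of the processing kept it past 2-fold, between 1.098 and 2.35. Lifting the minimum of 20 UMIs, counted among the 12, could not change it. The 4 h ratio was 2.06 (1.18 to 3.48), just short of a change at 0.97. A DUSP5 UMI was in 7.29% of CD14 cells without LPS and in 21.9% at 2 h, and in 1.28% and 5.49% at 1000 UMIs a cell. Leaving out cells with 3 or more DUSP5 UMIs, of which there were 2 without LPS and 5 at 2 h, the levels were 7.60 and 20.4 CPM, or 1.31 on the log2 scale. This cut took out only 8 of 58 and 16 of 84 UMIs, so it could move the value little.

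In CD3E cells DUSP5 was at 2.69, 5.003, 4.53 and 9.14 CPM. The 8 h value was past 2-fold, at 3.39-fold (2.29 to 5.09) or 1.46 on the log2 scale, but it came from 26 of 1550 cells. Of its 76 UMIs, 53 lay in 5 cells, and without cells of 3 or more DUSP5 UMIs the levels were 1.12 CPM without LPS and 2.77 CPM at 8 h, which is 0.83 on the log2 scale and not a change. In MS4A1 cells, the highest of the gated classes without LPS, the level was 22.9, 20.0, 20.5 and 22.4 CPM, with ratios to no LPS of 0.871 to 0.976 whose intervals all included 1. Here too the 8 h UMIs were concentrated, with 61 of 88 in 9 cells, where 57 of 180 lay in 10 cells without LPS. Without cells of 3 or more DUSP5 UMIs the level went from 15.7 to 6.94 CPM, or -1.07 on the log2 scale. Since this cut is on the DUSP5 count itself and took out unequal parts, the value is not read as a change.

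**Figure D3:**
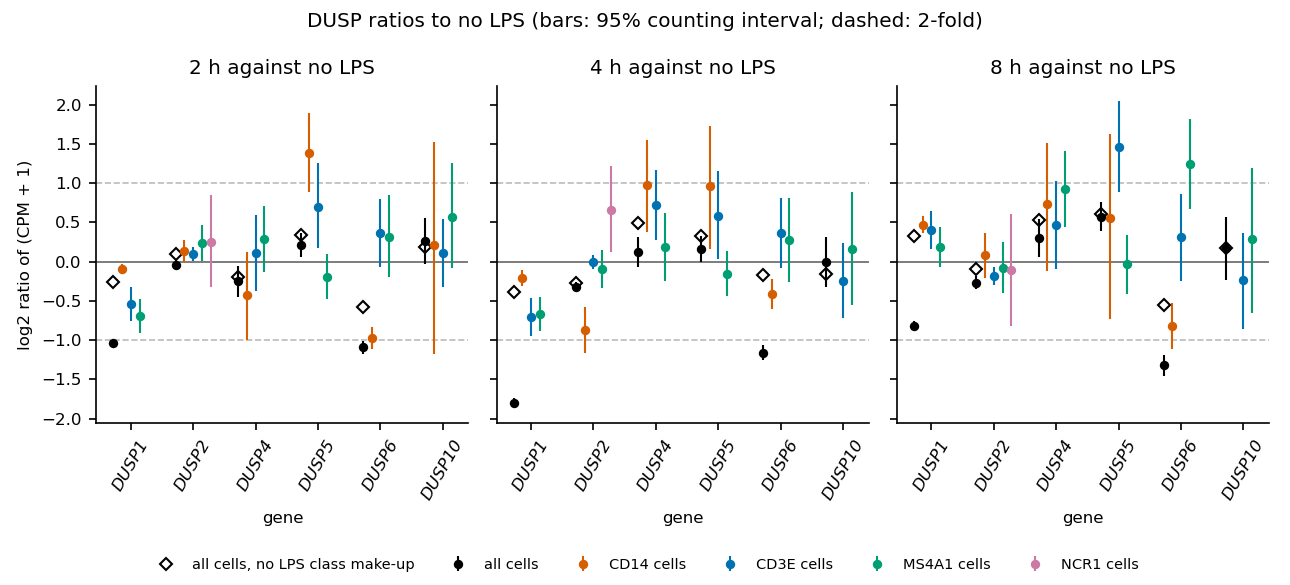
The log2 ratio of (CPM + 1) to no LPS for each DUSP gene at 2 h, 4 h and 8 h, over all kept cells and in each gated class, with 95% counting intervals as bars, dashed lines at 2-fold and open diamonds for all cells at the class make-up of the no LPS library. Points with under 20 UMIs are left out. DUSP1 and DUSP6 over all cells (filled black) lie below their diamonds at each time, and DUSP5 in CD14 cells at 2 h (1.38), DUSP5 in CD3E cells at 8 h (1.46) and DUSP6 in MS4A1 cells at 8 h (1.24) lie above the upper dashed line.

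Most DUSP5 UMIs lay outside the gates or in few cells. Ungated cells held 48.1% to 55.6% of them, and ungated cells with none of the 4 gate markers were at 70.1, 71.0, 65.5 and 126 CPM. Cells with 3 or more DUSP5 UMIs numbered 50, 70, 62 and 36, which was 0.64%, 0.71%, 0.84% and 1.06% of the cells kept, and they held 46.5%, 41.7%, 52.9% and 70.2% of all DUSP5 UMIs. Another 41, 70, 47 and 9 cells had 2 UMIs, just under this limit. The cells with 3 or more were shallow, with medians of 747.5, 918, 697.5 and 944 UMIs where the other cells had 4010, 4080, 4767 and 4586. Of them 29, 39, 28 and 19 had no gate marker, and 10, 15, 17 and 9 were MS4A1 cells. In these cells EGR1, an immediate early transcription factor downstream of ERK, was at 2006, 812, 1374 and 1530 CPM, against 42.3, 19.5, 12.9 and 18.9 CPM in the other cells. FOS, another immediate early gene, was at 766, 260, 501 and 586 CPM against 23.1, 12.9, 9.76 and 17.1 CPM. The heat shock gene HSPA1A was at 2646, 677, 1388 and 2079 CPM against 24.3 to 30.9 CPM. PLK2, a polo-like kinase, was at 372 to 956 against 5.08 to 8.70 CPM, and PFKFB3, an enzyme that promotes glycolysis, at 764 to 1769 against 36.2 to 44.6 CPM. These 5 genes and the limit of 3 UMIs were chosen after their values were seen. A UMI of the B cell list was in 30 of 50, 43 of 70, 35 of 62 and 24 of 36 of these cells, of the T cell list in 12, 28, 23 and 13, and of the monocyte list in 22, 16, 14 and 11. The B cell list was at 1145, 632, 651 and 1383 CPM in these cells against 932, 959, 936 and 859 CPM in the others. The T cell list was at 600, 533, 1133 and 852 CPM against 1360, 1421, 1509 and 1544 CPM. The plasma cell list was at 111, 7839, 22.8 and 73.3 CPM in these cells against 407, 272, 217 and 145 CPM in the others, and at 2 h its 2779 UMIs lay in 13 of the 70 cells. The monocyte list was at 1319, 2937, 1698 and 183 CPM against 3520, 915, 458 and 1099 CPM. The neutrophil list was at 0, 189, 373 and 0 CPM against 13.8 to 26.0 CPM, and the dendritic cell list at 63.7 to 211 against 22.0 to 29.9 CPM. The NK cell list was at 379, 559, 537 and 156 CPM against 742, 383, 342 and 341 CPM. The monocyte, NK cell, neutrophil and dendritic cell lists were thus above the other cells at 2 h and 4 h. The plasma cell list was so at 2 h alone, and the dendritic cell list in all 4 libraries. The part of these cell types in the DUSP5 levels was not tested. Cells with 3 or more DUSP5 UMIs were present without LPS as well as with it.

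**Figure D4:**
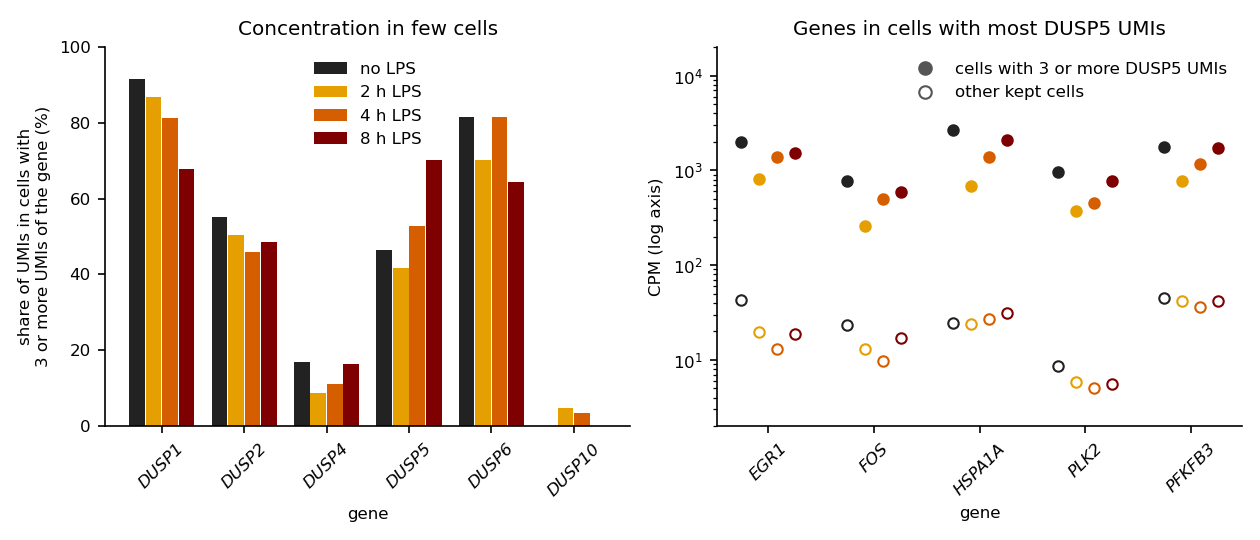
Left, the share (%) of the UMIs of each DUSP gene that lay in cells with 3 or more UMIs of that gene, by library; right, the level (CPM, log axis) of 5 genes in cells with 3 or more DUSP5 UMIs (filled) and in all other kept cells (open), by library in the same colours. DUSP5 goes from 46.5% without LPS to 70.2% at 8 h on the left, and on the right the filled points of EGR1 (812 to 2006 CPM) stand above the open ones (12.9 to 42.3 CPM) in all 4 libraries.

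DUSP6, the cytoplasmic ERK phosphatase and itself an ERK target, was also highest in CD14 cells among the 4 gated classes. Ungated cells held more DUSP6 UMIs than CD14 cells in each LPS library. In CD14 cells DUSP6 was at 310, 158, 233 and 175 CPM. CD14 cells stood above MS4A1 cells by 50.6-fold (38.0 to 68.9) without LPS, and by 20.0-fold, 30.6-fold and 11.1-fold at the 3 times. MS4A1 cells lay 2.68-fold (1.81 to 3.98) above CD3E cells at 8 h, while in the other 3 libraries the interval of this ratio included 1. NCR1 cells, with 1 or 2 DUSP6 UMIs, could not be placed against either. The ratio in CD14 cells was 0.510 (0.463 to 0.561) at 2 h, 0.751 (0.657 to 0.856) at 4 h and 0.566 (0.461 to 0.689) at 8 h, so that each LPS library was lower and none was past 2-fold. A DUSP6 UMI was in 73.2%, 60.2%, 69.6% and 66.0% of CD14 cells, and both DUSP1 and DUSP6 in 70.5%, 54.8%, 59.8% and 63.8%. The summed neutrophil markers of CD14 cells were highest at 4 h, at 10.6, 46.7, 132 and 25.1 CPM, with CAMP and MMP8 at 0 in all 4 libraries. The part of such cells in the CD14 level was not tested.

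In the lymphoid classes DUSP6 was below 16 CPM. CD3E cells were at 4.53, 6.10, 6.10 and 5.89 CPM, and every ratio had an interval that included 1. MS4A1 cells were at 6.12, 7.88, 7.59 and 15.8 CPM, from 48, 97, 87 and 62 UMIs. The 8 h level was the highest and was past 2-fold against no LPS, at 2.58-fold (1.74 to 3.84) or 1.24 on the log2 scale. It came from 29 of 663 cells, 7 of which held 36 of the 62 UMIs. Without cells of 3 or more DUSP6 UMIs the levels were 3.71 CPM without LPS and 6.70 CPM at 8 h, or 0.71 on the log2 scale, and with a gate of 2 MS4A1 UMIs the value was 0.40. The 11 monocyte markers summed to 160 CPM in MS4A1 cells at 8 h and to 306 CPM without LPS, and S100A12 alone was at 110 and 263 CPM of these. The other 10 markers summed to 49.1 and 43.6 CPM, and of all 11, 7 were higher and 4 lower at 8 h. As a share of its level in CD14 cells the median monocyte marker stood at 1.79% at 8 h and at 1.09% without LPS, where DUSP6 stood at 8.9997% and 1.98%. Neutrophil markers were at 4.84 and 7.77 CPM. The part of such cells in the DUSP6 level of MS4A1 cells was not tested.

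Outside the gates, the ungated cells with CSF3R, the receptor of the granulocyte growth factor, but no FLT3 and no CD3E, MS4A1 or NCR1 UMI had the highest DUSP6 level of the groups summed. These 67, 132, 104 and 42 cells were at 1462, 1523, 2048 and 1071 CPM, with DUSP1 at 2349, 700, 1234 and 1716 CPM. DUSP5 in them was at 10.4, 93.3, 151.7 and 31.2 CPM, from 1, 22, 30 and 3 UMIs. At 4 h they held 405 of the 1471 DUSP6 UMIs of all cells kept. In contrast, ungated cells with the dendritic cell marker FLT3 and no UMI of CSF3R or the 4 gate markers, 20, 16, 7 and 6 cells, had 0, 2, 0 and 2 DUSP6 UMIs but 64, 52, 38 and 27 DUSP2 UMIs. Their DUSP2 level was 229, 320, 351 and 293 CPM. Both groups were chosen after the gated values were seen.

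DUSP10, which acts on JNK and p38, was the lowest of the 6 genes in UMIs, with 162, 250, 168 and 81 in all. Its level over all cells was 4.21, 5.22, 4.18 and 4.86 CPM, with ratios to no LPS of 0.994 to 1.24. CD3E cells were at 4.99, 5.46, 4.07 and 4.09 CPM and MS4A1 cells at 3.57, 5.77, 4.10 and 4.58 CPM, and these classes did not differ beyond counting error in any library. NCR1 cells, with 7 UMIs, lay 3.29-fold (1.25 to 7.32) above MS4A1 cells at 4 h. CD3E cells lay above CD14 cells by 2.35-fold (1.32 to 4.50) without LPS and by 2.08-fold (1.06 to 4.65) at 2 h. CD14 cells had 14, 9, 1 and 3 DUSP10 UMIs, so a ratio was given there only at 2 h, at 1.24 (0.473 to 3.07). No library had over 3 cells with 3 or more DUSP10 UMIs.

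By class, few of the 6 genes were past 2-fold against no LPS. In CD14 cells 1 of 6 genes tested was past 2-fold at 2 h (DUSP5, up), 0 of 5 at 4 h and 0 of 5 at 8 h, where 26.4%, 18.6% and 14.5% of all genes tested were. In CD3E cells the counts were 0, 0 and 1 (DUSP5, up) of 6, where 0.905%, 1.79% and 1.19% of genes were. In MS4A1 cells they were 0, 0 and 1 (DUSP6, up) of 6, where 4.3%, 7.27% and 3.62% of genes were. The median log2 ratio of the genes tested was 0.02, -0.21 and 0.47 in CD14 cells, beside -0.57, -0.22 and -0.10 over all genes tested. It was 0.11, 0.18 and 0.36 in CD3E cells beside -0.02, -0.01 and 0.03, and 0.26, 0.03 and 0.24 in MS4A1 cells beside -0.12, -0.09 and 0.01. In CD14 cells at 2 h the ratios therefore stand beside a median of all genes that is itself at -0.57. With TMM factors that median was -0.07, and DUSP1 was at 0.45, DUSP2 at 0.67, DUSP4 at 0.08, DUSP5 at 1.89, DUSP6 at -0.43 and DUSP10 at 0.61, so that DUSP1 and DUSP4 turned from lower to higher. With the same factors at 4 h the median moved from -0.22 to -0.02, and DUSP4 at 1.17 and DUSP5 at 1.15 were past 2-fold.

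Over the 16 sums of 4 classes in 4 libraries, DUSP1 and DUSP6 followed the most similar pattern of any pair of the 6, with a Pearson r of 0.95 of log2(CPM + 1). The next pair was DUSP4 and DUSP5, at 0.62. DUSP10 and DUSP1 were at -0.69. The genes with the pattern closest to DUSP1, among 9603 with at least 200 UMIs, were SLC44A1 (0.98), ETS2 (0.98) and MS4A7 (0.98). For DUSP6 they were ENSBTAG00000004043, TGM3 and PDXK, each at 0.99. DUSP2 was closest to PRKCH (0.96), MVP (0.95) and MBOAT1 (0.95), DUSP4 to SLC2A1 (0.95), KBTBD2 (0.86) and DDX19B (0.86), DUSP5 to ARL11 (0.81), DENND5B (0.80) and BHLHE40 (0.80), and DUSP10 to ENSBTAG00000048983 (0.94), PLCL2 (0.91) and INPP5D (0.90). These values are descriptions: the 16 points share libraries and depth, and those of NCR1 cells rest on few UMIs. So do those of DUSP10 in CD14 cells, with 14, 9, 1 and 3 UMIs. The points span classes as well as times, so an r does not describe a course over LPS time.

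Of 47 genes of the MAP kinase cascade, which acts upstream of the phosphatases, 45 were tested over all cells at 2 h and 44 at 4 h and at 8 h. At 2 h 1 was past 2-fold, at 4 h 2 and at 8 h 1, beside the 3.4%, 5.54% and 3.41% of all genes. ARAF, a RAF kinase that feeds ERK, was the 1 gene down at each time, and KSR1, a scaffold of the same cascade, the 1 gene up, at 4 h. ARAF was at 1203, 533, 331 and 282 CPM over all cells. In CD14 cells it was at 5136, 4567, 5756 and 2994 CPM, within 2-fold of no LPS at all 3 times. KSR1 was at 3.45, 7.21, 8.12 and 4.98 CPM over all cells, and at 6.37, 16.2, 15.2 and 7.13 CPM in MS4A1 cells. The median log2 ratio of the cascade genes over all cells was -0.15, -0.09 and 0.04, beside -0.03, 0.02 and 0.10 for all genes. In CD14 cells 39 cascade genes were tested at 2 h, with 2 up (MAP2K3 and KSR1) and 12 down, among them the kinases MAPK3, which is ERK1, and MAPK14, which is p38 alpha, both picked after their values were seen. Their median was -0.48, beside -0.57 for all genes, of which 26.4% were past 2-fold. At 4 h 1 was up and 4 were down of 37, and at 8 h 0 and 2 of 36. Of all genes in CD14 cells 18.6% and 14.5% were past 2-fold at these times.

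Of 26 other brakes on this pathway, 25 were tested over all cells at each time, with 1 up at 2 h, 3 down at 4 h and 1 down at 8 h. Of all genes 3.4%, 5.54% and 3.41% were past 2-fold at these times. DUSP8, a phosphatase of JNK and p38, was at 1.09, 3.70, 1.22 and 0.720 CPM, high at 2 h alone. Its 2 h level was past 2-fold in CD14 cells (25 UMIs, 10 without LPS) and in MS4A1 cells (35 UMIs, 2 without LPS). SPRED1, which holds back RAS signalling, was at 10.6, 7.25, 3.11 and 4.02 CPM over all cells, but at 32.2, 48.2, 34.5 and 46.8 CPM in CD14 cells. SPRY1, another RAS pathway inhibitor, was at 4.42, 3.15, 0.896 and 1.86 CPM, and SPRED2 was the third gene down at 4 h, at 3.19 CPM without LPS and 0.822 at 4 h. The median of this list was -0.08, -0.11 and -0.08 over all cells. In CD14 cells at 2 h 1 of 17 brakes tested was up (DUSP8) and 5 were down (DUSP23, PPM1A, PTPN7, SPRY4 and SPRED2), with a median of -0.57, equal to that of all genes to 2 decimals. At 4 h 0 were up and 3 down of 16, and at 8 h 0 and 1 of 16. Of all genes tested in CD14 cells, 26.4%, 18.6% and 14.5% were past 2-fold at 2 h, 4 h and 8 h.

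The scATAC-seq assay cuts open chromatin with a transposase, and the deposited tables give counts per gene and barcode. Under the same identifiers 5 of the 6 genes were listed in all 4 scATAC-seq tables, and DUSP2 in none, so that DUSP2 accessibility is not analysed here. The no LPS library was shallow, with 975012 counts against 11957904 to 30250143 in the others. Its 3121 barcodes had a median of 213 counts, against medians of 2250 to 5205. At least 500 counts were found in 352 of them, but in every barcode of the other libraries. DUSP1 was at 116, 138, 142 and 156 CPM. DUSP6 was at 152, 82.4, 101 and 116 CPM, lowest at 2 h. DUSP4 was at 162, 160, 179 and 163 CPM, DUSP5 at 164, 207, 200 and 188 CPM, and DUSP10 at 288, 265, 270 and 295 CPM. No gene was past 2-fold. At 2 h against no LPS it was 0 of 5 genes, where 15.1% of 11374 genes were, at 4 h against 2 h 0 of 5, where 1.92% of 13133 were, and at 8 h against 4 h 0 of 5, where 6.47% of 11460 were. The median log2 ratios were -0.02, 0.03 and 0.13, beside -0.02, -0.00 and 0.00 over all genes tested.

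DUSP6 had the accessibility ratio farthest from 1 in these comparisons, 0.543 (0.460 to 0.645) at 2 h against no LPS, from 2492 counts and 148 counts of the shallow no LPS library. It was higher again by 1.22-fold (1.16 to 1.29) at 4 h against 2 h and by 1.15-fold (1.08 to 1.23) at 8 h against 4 h. DUSP1 rose by less, 1.11-fold (1.05 to 1.17) at 8 h against 4 h, and at 4 h against 2 h its interval included 1. Because 88.7% to 93.8% of the values above 0 were even, counts were not single independent events and these intervals are too narrow. Nuclei of all types were summed, so a shift between cell types and a change within one cannot be told apart.

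**Figure D5:**
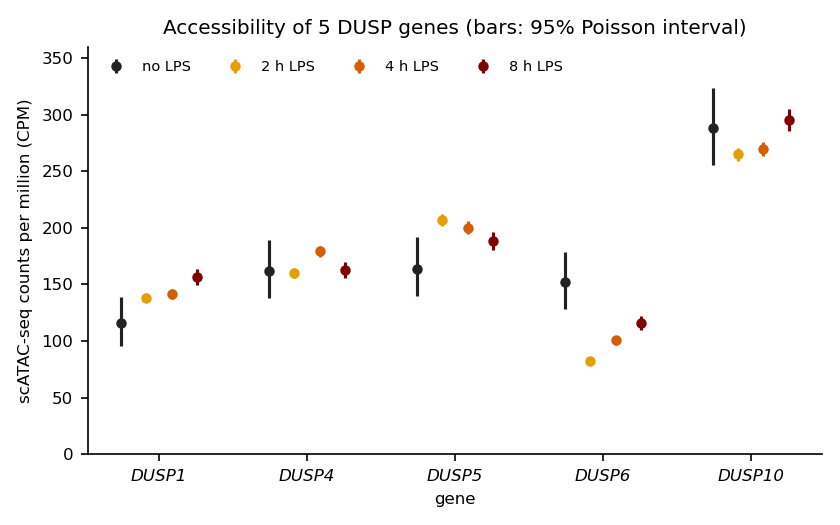
Accessibility of the 5 DUSP genes listed (scATAC-seq CPM, linear axis from 0) in each library, with 95% Poisson intervals as bars. The no LPS points carry the widest bars, and DUSP6 sits lowest at 2 h (82.4 CPM) and highest without LPS (152 CPM).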

How the data were processed

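Per the labels, scRNA-seq and scATAC-seq were done on the same 4 parts of 1 blood pool. The authors made the scRNA-seq tables with Cell Ranger 3.1.0 on ARS-UCD1.2, and the deposited values are unnormalized UMI counts (30902952 to 63770426 per library). For scATAC-seq the deposited values are counts per gene and barcode, whose rule of assignment to genes is not given in the sources used here. Both were used as deposited. No sequence or coordinate is shown, since no genome of this build was used.

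Cells were kept by the limits that the study states, which left more cells in each library than the study gives, gated on raw markers, and summed per class and library. Sums were scaled to CPM with a pseudocount of 1, and compared without a test since each group had 1 library. Intervals are exact Poisson, exact conditional binomial (ratios) or exact binomial (shares). Thinning drew 1000 UMIs per cell. The 6 members and the lists of cascade genes, brakes and markers were chosen with earlier results of these data known. Genes outside the members were named if past 2-fold over all cells with at least 200 UMIs (SPRED2 was added after its value was seen), or as the 3 genes of highest Pearson r with a member. The CD4, CD8A, FLT3 and CSF3R groups, and the cells with 3 or more UMIs of a gene, were chosen after values were seen. Alternatives were other limits, gates, weights of cells, pseudocounts and scaling by edgeR 4.0.16 (TMM) or DESeq2 1.42.0 size factors, neither used for a test. Scripts ran in Python 3.11.15 with scipy 1.17.1, and the ratio step was tested on simulated data.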

Additional observations from a re-analysis of the deposited data

Results flagged for a closer look

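Members were flagged that lay at least 1.5-fold up in 1 gated class and at least 1.5-fold down in another at the same time, with both counting intervals off 1. In each case the difference between the classes was not tested, since each class had 1 library per time.

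DUSP2 at 4 h against no LPS was at 0.66 on the log2 scale in NCR1 cells (111 UMIs in 90 cells, 39 UMIs in 58 cells without LPS) and at -0.87 in CD14 cells (105 UMIs in 102 cells, 1152 UMIs in 645 cells without LPS). Of the 105 UMIs in CD14 cells, 40 came from 1 cell. Without cells of 3 or more DUSP2 UMIs the values were 0.18 and -0.60.

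DUSP6 at 8 h against no LPS was at 1.24 in MS4A1 cells (62 UMIs in 663 cells) and at -0.82 in CD14 cells (105 UMIs in 47 cells). The value in MS4A1 cells rests on few cells, and without cells of 3 or more DUSP6 UMIs it was 0.71.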

How the results depend on the processing

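The medians of the DUSP list had no test, so a value was counted as moved when it left the counting interval of its main value. Over all list medians, 177 values under alternatives did not move and 17 did. Some that moved changed sign, among them those over all cells at 4 h and 8 h and in CD14 cells at 4 h. For the genes taken singly, 836 did not move and 135 did. Both counts of values that did not move include some that an alternative could not change, as with no minimum of 20 UMIs. With cells thinned to 1000 UMIs the list median moved to 0.095 over all cells at 4 h, to 0.77 and 0.72 in CD14 cells at 4 h and 8 h, and to 1.36 and 1.19 in NCR1 cells at 4 h and 8 h. With TMM factors it moved to 0.53 in CD14 cells at 2 h and to -0.0047 at 4 h, and with DESeq2 size factors to 0.57 and 0.011. In CD14 cells at 4 h it was also -0.37 without an upper limit on genes, -0.012 with a gate of 1 UMI, 0.87 with cells weighted equally and -0.31 with no minimum of 20 UMIs, which adds DUSP10. It was 0.25 over all cells at 8 h at the class make-up of the no LPS library, and 1.05 in NCR1 cells at 2 h with a gate of 2 UMIs. In NCR1 cells the main list median was that of DUSP2 alone, from 39, 76, 111 and 33 UMIs, and thinning left fewer. For accessibility, the share of barcodes with a count gave 3.70 at 2 h against no LPS and -0.71 at 8 h against 4 h, in libraries of unequal depth. Where no construction is named, the cause was not tested. Of the single genes past 2-fold, DUSP5 in CD14 cells at 2 h stayed past it under 12 of 12 alternatives, DUSP5 in CD3E cells at 8 h under 11 of 12 and DUSP6 in MS4A1 cells at 8 h under 10 of 12. Over all cells DUSP1 and DUSP6 stayed past it under 8 or 9 of 11, and both lost it at the class make-up of the no LPS library and with cells weighted equally, DUSP6 also with thinned cells and DUSP1 at 2 h also without the upper limit on genes. These tallies include alternatives that could not change the value. Lifting the minimum of 20 UMIs leaves the ratio of a gene already tested as it was. A gate of 1 UMI does the same in CD3E and MS4A1 cells, whose gate was already 1 UMI. No paired analysis was possible because each treatment had 1 library per assay. Depth limits DUSP10 everywhere and all members in NCR1 cells, where DUSP2 alone had enough UMIs for a ratio.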
